A study of Mus musculus with 23 samples.

Results

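Feedback regulators and core targets of canonical Wnt signalling were followed in mouse liver with and without beta-catenin in hepatocytes, and with and without phenobarbital. The set comprised 10 listed genes: Axin2, Lgr5, Rnf43, Znrf3, Nkd1, Sp5, Lef1, Tcf7, Notum and Tbx3. Every probe set assigned by the array's annotation to 1 of these genes alone was taken, which gave 20 probe sets for 9 genes, out of 34945 single-gene probe sets for 18193 genes. Tcf7 was not analysed here. Each gene is described first by its leading probe set, the one with the highest mean over the 23 arrays.

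RNA of 23 liver samples of male C3H mice was measured on Affymetrix 3' arrays, 1 array per sample. The groups were Ctnnb1 knockout with phenobarbital (7 samples), Ctnnb1 knockout without it (7), wild type with phenobarbital (4) and wild type without it (5). In the knockout an Alb-Cre transgene, driven by the albumin promoter and described in the labels as hepatocyte-specific, recombined a floxed Ctnnb1 gene. Which other liver cells keep beta-catenin was not tested. The labels name the backcross strain C3H/N and the mice C3H/He, and give neither ages nor the Cre and loxP status of the wild type. Treated mice of both genotypes had 0.05% phenobarbital (PB) in their diet for 12 weeks. Untreated mice had a diet without it, and their labels also list water as the vehicle. The labels number the samples of a group without stating that they came from separate animals, so p-values reflect how far these samples spread, which may be technical. Throughout, values are log2 signals and a difference of 1 is a doubling of signal.

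In canonical Wnt signalling, a Wnt ligand bound to Frizzled and Lrp5 or Lrp6 stops a destruction complex built on Axin from marking beta-catenin for degradation. Beta-catenin then enters the nucleus and activates genes through the TCF/LEF factors, several of which encode inhibitors that feed back on the pathway. In the liver lobule this activity is highest in hepatocytes around the central vein, where it maintains genes such as Glul, the glutamine synthetase gene. Phenobarbital activates the nuclear receptor CAR indirectly and promotes growth of liver tumours with activated beta-catenin in mice.

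RefSeq promoters (GRCm38.p6, 250 bases before to 50 after an annotated start site) were given for 5 of the 9 genes, 9 promoters in all. They were searched on both strands for the core of TCF/LEF binding sites, written as CTTTG followed by 2 bases that are each A or T. The 4 motifs of 7 letters that this spells share their beginning. Of 32851 promoters in the table, 16.9% held at least 1 match. The 3 shown are a promoter with 2 matches (Sp5), one with none (Axin2) and one with 1 match (Lef1), on the plus strand with each match in capitals.
Sp5, chr2:70474673-70474972: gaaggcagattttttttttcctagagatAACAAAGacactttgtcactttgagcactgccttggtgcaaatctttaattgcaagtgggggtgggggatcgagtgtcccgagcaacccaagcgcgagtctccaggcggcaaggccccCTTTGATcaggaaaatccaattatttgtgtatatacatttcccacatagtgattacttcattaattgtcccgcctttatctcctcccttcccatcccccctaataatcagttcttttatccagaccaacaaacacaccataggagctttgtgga
Axin2, chr11:108920099-108920398: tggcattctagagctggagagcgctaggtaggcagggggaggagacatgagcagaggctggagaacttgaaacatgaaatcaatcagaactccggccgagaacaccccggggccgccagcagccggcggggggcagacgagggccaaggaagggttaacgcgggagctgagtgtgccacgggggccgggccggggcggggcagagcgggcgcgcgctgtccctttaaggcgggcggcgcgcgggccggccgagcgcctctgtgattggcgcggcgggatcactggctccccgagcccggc
Lef1, chr3:131156044-131156343: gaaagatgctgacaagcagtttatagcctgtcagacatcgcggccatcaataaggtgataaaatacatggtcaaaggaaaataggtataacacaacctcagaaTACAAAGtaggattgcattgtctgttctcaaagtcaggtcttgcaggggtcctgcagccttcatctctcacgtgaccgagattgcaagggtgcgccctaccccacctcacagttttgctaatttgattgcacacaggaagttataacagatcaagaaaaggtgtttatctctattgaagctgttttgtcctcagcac
The Sp5 matches start 222 and 104 bases before the start site, and 1.94% of all promoters held 2 or more. The Lef1 match starts 147 bases before it, and the other 3 Lef1 promoters, both Rnf43 promoters and the Nkd1 promoter held none. The Lef1 window shown begins at 131156044 and the Axin2 window at 108920099, inside genes that start at 131110297 and 108917828. A match describes letters only, and a window without one says nothing about binding elsewhere. Signals for these genes are given below: Sp5 and Axin2 were lower in the knockout, and Lef1 was not called in any comparison.

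The array medians over all probe sets lay between 5.09 and 5.14. Each array's own 40th percentile, on average 4.56 (4.52 to 4.60), served as the background level. A probe set is called near background in a group if it lay below this level in every array of that group. The level is a chosen cut, and whether signals below it follow RNA was not tested. Ctnnb1 itself, by the leading of its 3 probe sets, ranged from 12.08 to 12.37 in treated knockouts, 12.11 to 12.42 in untreated knockouts, 12.03 to 12.10 in treated wild type and 12.18 to 12.23 in untreated wild type. It did not differ between untreated genotypes (0.048, adjusted p = 0.589), and the location of its probes relative to the deleted part was not analysed here, so it checks nothing about the deletion. Hepatocyte markers averaged 13.8 to 14.0 in every array, where the highest signal of any probe set was 14.79 to 14.92. Whether a change in hepatocyte share would show at such levels was not tested.

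The first question was which canonical targets depend on hepatocyte beta-catenin in untreated liver. Without phenobarbital, 7 of the 9 genes were lower in the knockout and none was higher. These were Axin2, Lgr5, Rnf43, Znrf3, Sp5, Notum and Tbx3, with log2 changes between -0.64 and -4.27, while Nkd1 and Lef1 were not called. Counted only down to background, the change was -2.93 for Tbx3 and -0.071 for Sp5. A call required an adjusted p under 0.05 in limma, adjusted over all single-gene probe sets. Of all 18193 genes, 7.64% were called lower in this comparison, and of all single-gene probe sets 7.49%. The 9 genes were chosen with earlier results of these data known, so their direction is no independent evidence. The arrays of both genotypes did not overlap for any of the 7, a pattern that 3.16% of all genes showed in this direction. The median change of the 9 genes was -0.91, beside -0.023 over all genes. This median is the change of Sp5 as measured, most of which lay below background.

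In bulk liver RNA, fewer cells of a type and less RNA per cell cannot be told apart. Markers of other cells moved with the genotype: without phenobarbital 9 of 12 macrophage, 8 of 10 stellate and 9 of 13 endothelial markers were higher in the knockout. Of other markers, 2 of 5 blood and 2 of 6 cholangiocyte markers were higher, 1 T lymphocyte marker of 12 was higher and 1 lower. None of 5 natural killer cell and 5 B lymphocyte markers was called (2 and 1 at an unadjusted p under 0.05 in limma), and 0 of 6 hepatocyte markers were called (1 at an unadjusted p under 0.05 in limma). Over all genes, 10.6% were called higher. The mean macrophage marker level ranged from 7.11 to 9.33 in untreated knockouts and from 6.41 to 7.05 in untreated wild type. For stellate markers it ranged from 7.67 to 8.77 in untreated knockouts and from 6.88 to 7.12 in untreated wild type. For endothelial markers the ranges were 6.75 to 7.49 in untreated knockouts and 6.34 to 6.60 in untreated wild type. Blood markers ranged from 5.83 to 6.97 in untreated knockouts and from 5.26 to 5.54 in untreated wild type. Cholangiocyte markers (4.78 to 5.37 in untreated knockouts and 4.57 to 4.79 in untreated wild type) and natural killer cell markers (3.91 to 5.05 in untreated knockouts and 3.97 to 4.18 in untreated wild type) overlapped between genotypes. The part of all these markers in the members' changes was not tested. Untreated knockout arrays 2, 6 and 7 had the highest stellate marker levels of their group. Without them the 7 genes were still called, with changes of -0.51 (Znrf3) to -4.24 (Tbx3). Those 3 arrays were chosen on stellate markers, and array 1, with a macrophage marker level of 8.79 beside 7.11 to 7.27 in arrays 3 to 5, stayed in that fit.

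**Figure D1:**
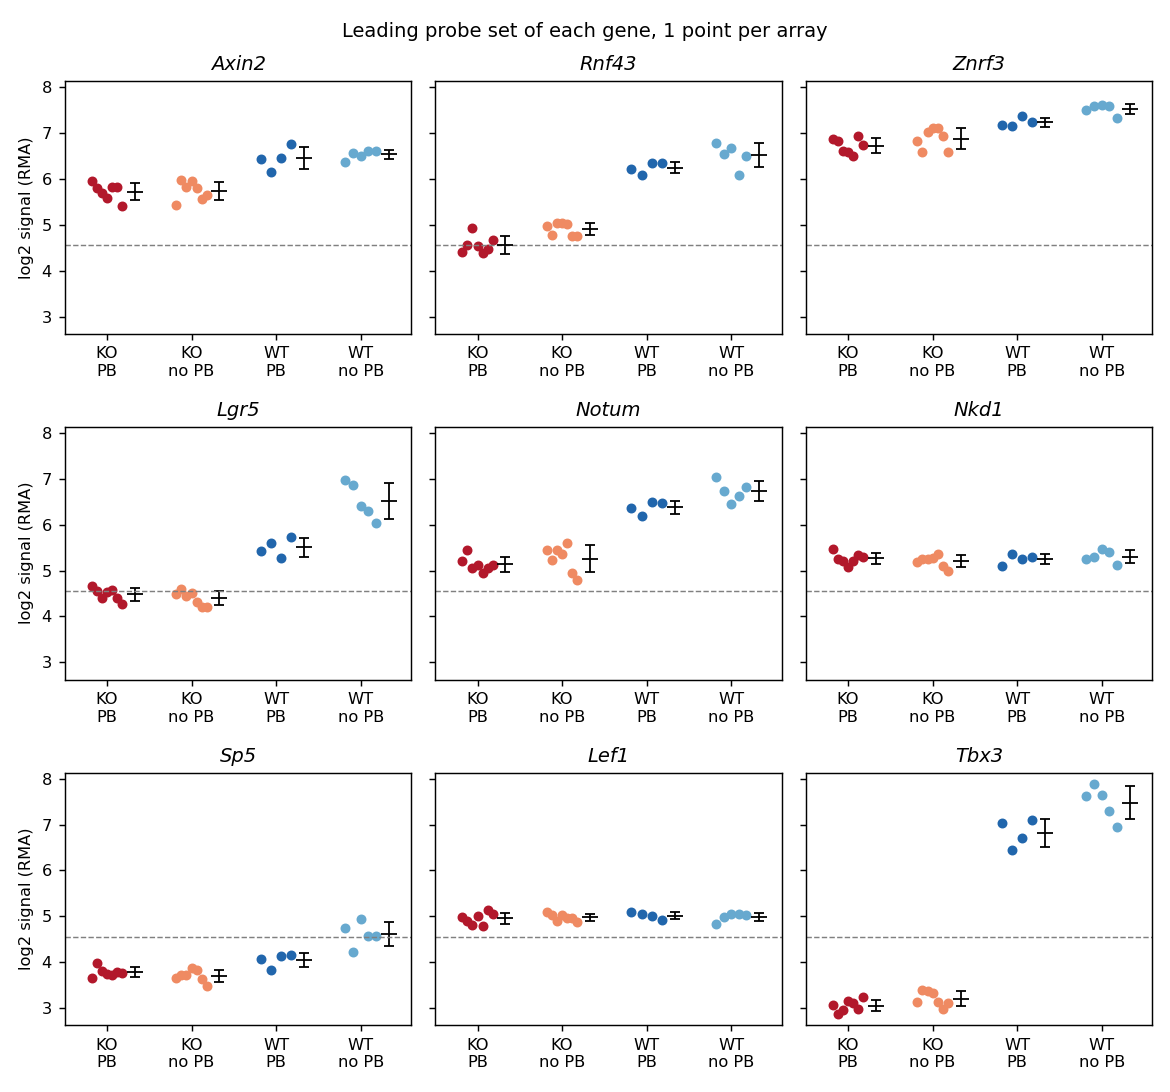
Log2 signal of the leading probe set of each of the 9 genes, 1 panel per gene and 1 point per array, with groups from left to right knockout with PB, knockout without PB, wild type with PB and wild type without PB. Black bars are mean ± SD and the dashed line is the mean background level of 4.56; Tbx3 in both knockout groups and Sp5 in 3 groups lie below it, and Nkd1 and Lef1 are level across the groups.

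Axin2 (chr11:108917828-108950783, GRCm38.p6 RefSeq) encodes a scaffold of the destruction complex and is a widely used reporter of Wnt activity. Its probe set 1436845_at had a lowest, median and highest signal of 5.42, 5.79 and 5.97 in untreated knockouts, against 6.36, 6.56, 6.50, 6.62 and 6.61 in untreated wild type. The groups did not overlap, and every array of both lay above the background level. The change was -0.79 (SE 0.11, limma adjusted p = 2.23e-05), which left 57.7% of the wild-type signal. Axin2 thus kept a signal of 5.74 ± 0.20 (SD, n = 7) in the knockout, well above background. A second Axin2 probe set lay near background in all groups and was not called.

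Rnf43 and Znrf3 encode membrane ubiquitin ligases that remove Frizzled receptors from the cell surface. Rnf43 (chr11:87663087-87735539) had 4.76, 4.97 and 5.05 as its lowest, median and highest signal in untreated knockouts, against 6.78, 6.55, 6.68, 6.08 and 6.49 in untreated wild type. It fell by 1.61 on the log2 scale (SE 0.11, limma adjusted p = 4.12e-10), to 32.8% of the wild-type signal. Znrf3 (chr11:5276329-5444847) had 6.59, 6.93 and 7.11 in untreated knockouts, against 7.49, 7.58, 7.60, 7.59 and 7.33 in untreated wild type. The groups did not overlap for either ligase. Znrf3 kept 64.1% of its wild-type signal (change -0.64, SE 0.096, limma adjusted p = 9.26e-05), the mildest of the 7 called changes. Its second probe set, 1437646_at, changed by -0.30 (limma adjusted p = 0.0297) with overlapping groups. That call was lost with the replicate block (adjusted p = 0.0949), with the groups compared only (0.0505), without untreated knockout array 6 (adjusted p = 0.0637), without untreated wild-type array 2, 3 or 4 (0.0845, 0.0645 and 0.0593), and without untreated knockout arrays 2, 6 and 7 (0.191).

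Notum encodes a secreted enzyme that removes the lipid group Wnt proteins need for receptor binding. Notum (chr11:120653788-120661193) ranged around a median of 5.35 (lowest 4.80, highest 5.59) in untreated knockouts, against 7.04, 6.73, 6.44, 6.62 and 6.82 in untreated wild type. No knockout array reached the lowest wild-type array. The change was -1.47 (SE 0.12, limma adjusted p = 2.25e-08), or 36.1% of the wild-type signal.

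Lgr5 encodes a receptor for R-spondins, the secreted proteins that protect Frizzled from Rnf43 and Znrf3. Lgr5 (chr10:115450314-115587780) had 4.21, 4.44 and 4.60 as its lowest, median and highest signal in untreated knockouts, against 6.97, 6.86, 6.40, 6.30 and 6.03 in untreated wild type. All untreated wild-type arrays were above background and only 1 of the 7 untreated knockout arrays was. It fell by 2.12 on the log2 scale (SE 0.13, limma adjusted p = 8.5e-11). The knockout signal lay at background, which may bound the 4.34-fold difference. The second Lgr5 probe set, 1444519_at, stayed at 4.53 ± 0.14 in untreated knockouts and 4.64 ± 0.12 in untreated wild type (SD, n = 7 and 5), close to background, and was not called.

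Tbx3 encodes a T-box repressor, and its RNA gave the deepest change of the set. Its leading probe set 1437479_x_at (Tbx3, chr5:119670534-119684724) had 2.98, 3.14 and 3.40 in untreated knockouts as lowest, median and highest, against 7.61, 7.88, 7.65, 7.30 and 6.95 in untreated wild type. No untreated knockout array was above background and every wild-type array was. The change was -4.27 (SE 0.13, limma adjusted p = 2.47e-16). Counted only down to the background level, the change was -2.93.

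The 5 Tbx3 probe sets did not show the same size of change. Probe set 1448029_at of Tbx3 changed by -3.36 (limma adjusted p = 1.43e-14) and 1445757_at by -0.88 (limma adjusted p = 2.9e-05). Both lay below background in every untreated knockout array, and counted only down to that level they changed by -1.97 and -0.044. In 1445757_at only 2 of the 5 untreated wild-type arrays were above background, so most of its fall lay below that level. The other two Tbx3 probe sets lay near background in all groups and were not called. Averaging all probe sets of a gene, those near background included, brought the change of Tbx3 to -1.72, of Lgr5 to -1.11 and of Axin2 to -0.38, all still called.

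Sp5 encodes a Sp-family transcription factor that acts as a repressor downstream of Wnt. Sp5 (chr2:70474923-70477726) was faint: its lowest, median and highest signals were 3.48, 3.71 and 3.88 in untreated knockouts, against 4.75, 4.23, 4.95, 4.57 and 4.58 in untreated wild type. The groups did not overlap, and only 3 of the 5 wild-type arrays were above background. The change was -0.91 (SE 0.095, limma adjusted p = 7.63e-07), but counted only down to the background level it was -0.071.

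Nkd1 encodes an inhibitor that binds Dishevelled, and Lef1 one of the TCF/LEF factors through which beta-catenin acts. Nkd1 (chr8:88521342-88594887) averaged 5.20 ± 0.13 in untreated knockouts and 5.31 ± 0.14 in untreated wild type (SD, n = 7 and 5), a difference of -0.10 with a 95% interval from -0.26 to 0.053. Lef1 (chr3:131110297-131224357) averaged 4.98 ± 0.073 in untreated knockouts and 4.98 ± 0.091 in untreated wild type, a difference of -0.0047 with a 95% interval from -0.13 to 0.12. The arrays overlapped for both genes. Their intervals bound any change of the signal, but not a change masked by background, since both genes lie within 1 log2 unit of it. None of the 4 Nkd1 or 2 Lef1 probe sets was called in any of the 5 comparisons.

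**Figure D2:**
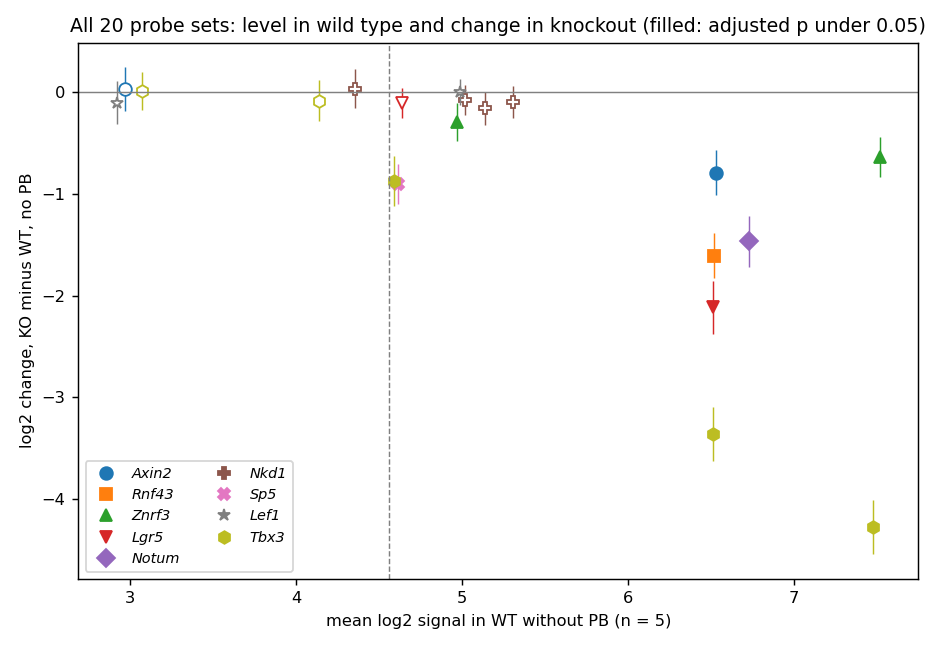
Change between untreated knockout and untreated wild type (log2, vertical axis) against the mean signal in untreated wild type (log2, horizontal axis) for all 20 probe sets, with bars for the 95% interval and filled symbols for those called. Of the 20, 10 were lower and none was higher; the 4 probe sets below background in all 23 arrays lie left of the dashed background line, with changes between -0.11 and 0.025.

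With phenobarbital, the comparison of knockout and wild type gave 6 of the 9 genes lower, none higher and no overlap between genotypes for the 6. Sp5 was called without phenobarbital and not with it, and the test of that difference is the interaction given below. Of all genes, 5.79% were called lower in this comparison and 6.14% showed non-overlapping arrays in this direction. The median change of the 9 genes was -0.73, beside -0.017 over all genes. At the level of markers, 9 of 12 macrophage, 5 of 10 stellate and 7 of 13 endothelial markers were higher in the treated knockout and 1 endothelial marker was lower, beside 7.88% of all genes called higher. Also higher were 3 of 6 cholangiocyte markers and 1 of 6 hepatocyte markers, 1 of 5 B lymphocyte markers was lower, and no blood, natural killer cell or T lymphocyte marker was called by limma (2 of each at an unadjusted p under 0.05). Their part in these changes was not tested either. Rnf43 had 4.38, 4.53 and 4.94 as its lowest, median and highest signal in treated knockouts, against 6.21, 6.08, 6.35 and 6.34 in treated wild type (change -1.68, SE 0.11, limma adjusted p = 3.75e-10). Its mean of 4.56 in treated knockouts lay at background, with 4 of the 7 arrays above it, which may bound this change.

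Tbx3 changed by -3.76 (SE 0.14, limma adjusted p = 4.03e-15), with 2.87, 3.06 and 3.24 in treated knockouts, against 7.02, 6.44, 6.71 and 7.10 in treated wild type. Every treated knockout array lay below background for Tbx3, and counted only down to that level the change was -2.26. Notum changed by -1.24 (SE 0.13, limma adjusted p = 7.79e-07), with 4.94, 5.12 and 5.45 in treated knockouts, against 6.37, 6.18, 6.50 and 6.47 in treated wild type. Both stayed apart between genotypes in every array. Axin2 changed by -0.73 (SE 0.11, limma adjusted p = 0.000148), with 5.40, 5.80 and 5.95 in treated knockouts, against 6.44, 6.15, 6.45 and 6.75 in treated wild type. Znrf3 changed by -0.51 (SE 0.10, limma adjusted p = 0.00189), with 6.49, 6.73 and 6.94 in treated knockouts, against 7.18, 7.15, 7.36 and 7.25 in treated wild type. Both of these genes kept most of their wild-type signal, 60.5% for Axin2 and 70.1% for Znrf3. The second Znrf3 probe set, 1437646_at, changed by -0.096 with overlapping groups and was not called (limma adjusted p = 0.566). It lay above background in every treated array. Lgr5 changed by -1.02 (SE 0.14, limma adjusted p = 2.09e-05), with 4.27, 4.54 and 4.67 in treated knockouts, against 5.42, 5.60, 5.27 and 5.73 in treated wild type. With the mean of a gene's probe sets the changes were smaller and still called: -1.45 for Tbx3, -0.59 for Lgr5, -0.39 for Axin2 and -0.30 for Znrf3.

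Sp5 lay below background in every array of both treated groups. Its values of 3.66, 3.77 and 3.99 in treated knockouts, against 4.08, 3.82, 4.14 and 4.17 in treated wild type, overlapped (change -0.27, limma adjusted p = 0.0901). It was called without untreated wild-type array 2 (0.0476) or treated wild-type array 2 (0.0471), with array weights, and with the groups compared only.

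The next comparison asked which of these genes move with phenobarbital itself. In wild type 3 of the 9 genes were lower with phenobarbital and none was higher: Lgr5, Sp5 and Tbx3. Of all genes, 1.2% were called lower in this comparison. The arrays did not overlap for Lgr5 and Sp5, a pattern that 4.38% of all genes showed in this direction, and overlapped for Tbx3. The median change of the 9 genes was -0.28, beside 0.011 over all genes, and 8 of the 9 had a negative value. Of the macrophage, stellate, endothelial and T lymphocyte markers, 0 were called by limma in this comparison, with 1, 1, 2 and 1 of them at an unadjusted p under 0.05, and 1 of 5 B lymphocyte markers was higher. The mean macrophage marker level ranged from 6.25 to 6.55 in treated wild type and from 6.41 to 7.05 in untreated wild type. This comparison shares the untreated wild-type arrays with the knockout comparison above, so both sets of changes are read side by side only.

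Lgr5 had 5.42, 5.60, 5.27 and 5.73 in treated wild type, against 6.97, 6.86, 6.40, 6.30 and 6.03 in untreated wild type. All arrays of both groups were above background and did not overlap. The change was -1.01 (SE 0.15, limma adjusted p = 0.000177), which left 49.8% of the untreated signal, and 36 of 18193 genes fell further. The second Lgr5 probe set, close to background, changed by -0.00098, and the mean of both by -0.50 (limma adjusted p = 0.00167). Treated wild type thus sat between untreated wild type and the knockout groups for Lgr5.

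Tbx3 had 7.02, 6.44, 6.71 and 7.10 in treated wild type, against 7.61, 7.88, 7.65, 7.30 and 6.95 in untreated wild type. The groups overlapped through 1 untreated array at 6.95, and the change was -0.66 (SE 0.15, limma adjusted p = 0.0146). This call was lost without treated wild-type array 2 (adjusted p = 0.0791) or 3 (adjusted p = 0.0633), and when only the groups compared were fitted (adjusted p = 0.0695). Probe set 1448029_at of Tbx3 averaged 5.77 ± 0.061 in treated wild type and 6.51 ± 0.44 in untreated wild type (SD, n = 4 and 5), without overlap. It changed by -0.74 (limma adjusted p = 0.00513). Probe set 1445757_at of Tbx3 had a change of 0.021 and was not called, and the mean of the 5 probe sets changed by -0.25 (limma adjusted p = 0.0104).

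Sp5 had 4.08, 3.82, 4.14 and 4.17 in treated wild type, all below background, against 4.75, 4.23, 4.95, 4.57 and 4.58 in untreated wild type. Sp5 changed by -0.56 (SE 0.11, limma adjusted p = 0.00418), and by -0.036 if counted only down to the background level.

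Axin2, the common reporter, changed by -0.082 with a 95% interval from -0.33 to 0.17 (limma adjusted p = 0.865), so a loss of the size seen in the knockout lay outside its interval. Rnf43, Znrf3 and Notum had values of -0.27, -0.28 and -0.35 with adjusted p of 0.327, 0.224 and 0.246 in limma, and their arrays overlapped. Their intervals did not include 0 (-0.52 to -0.018, -0.51 to -0.056 and -0.64 to -0.060) but none passed the adjustment over all probe sets. Nkd1 and Lef1 had -0.054 and 0.029, and were not called.

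**Figure D3:**
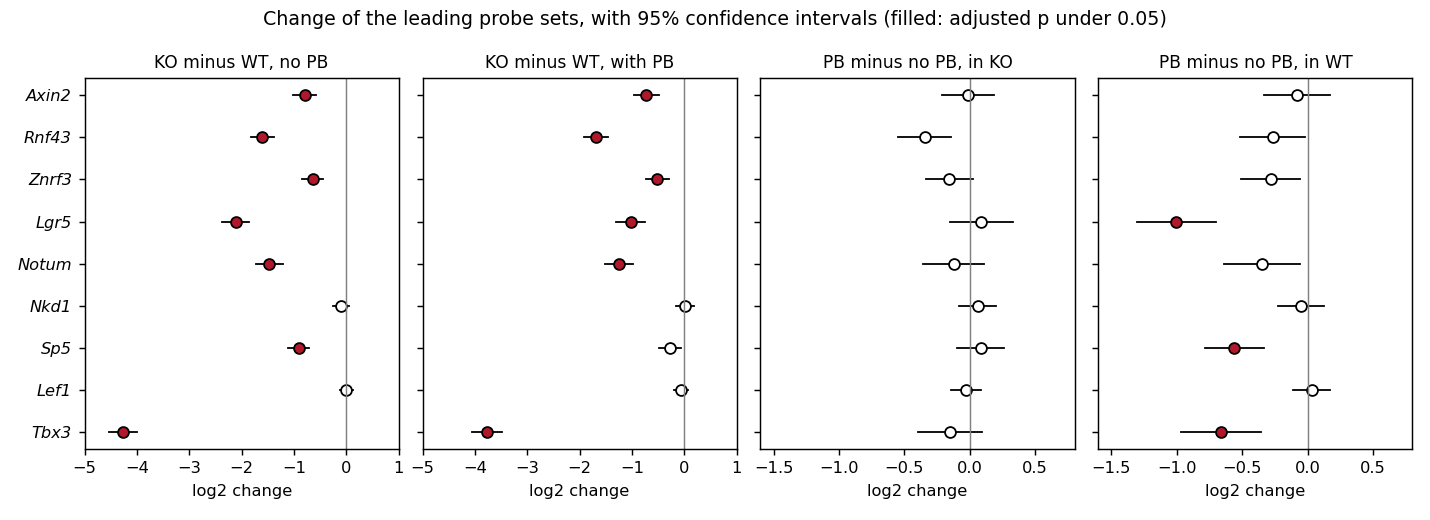
Log2 change (points) with its 95% interval (bars) of each gene's leading probe set in 4 comparisons, from left to right knockout minus wild type without PB and with PB, then PB minus no PB in knockout and in wild type. Filled points were called at adjusted p under 0.05; the largest negative values belong to Tbx3, and Lgr5 is the member with the largest negative change with PB in wild type.

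In the knockout, none of the 9 genes was called with phenobarbital, against 1.46% of all genes called in either direction, and 1 of them had an unadjusted p under 0.05. That gene was Rnf43, with 4.38, 4.53 and 4.94 as its lowest, median and highest signal in treated knockouts, against 4.76, 4.97 and 5.05 in untreated knockouts. Its change was -0.35 (SE 0.097, limma adjusted p = 0.0726). The treated knockout mean of Rnf43 lay at background, which may bound this change. Rnf43 was called without treated knockout array 3 (adjusted p = 0.0233), without untreated wild-type array 4 (0.0282), and without untreated knockout arrays 2, 6 and 7 (-0.45, 0.0245). Lgr5 had a change of 0.087 and was above background in 3 treated and 1 untreated knockout arrays. Sp5 had a change of 0.082 and was above background in no knockout array. Tbx3 lay below background in every knockout array, where a further loss may not be measurable. Axin2 and Znrf3, which were above background in every knockout array, had changes of -0.014 (95% interval -0.21 to 0.19) and -0.16 (-0.34 to 0.025). Notum, Nkd1 and Lef1 were also above background in every knockout array. Their changes were -0.12 (-0.35 to 0.11), 0.060 (-0.080 to 0.20) and -0.026 (-0.14 to 0.088).

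The interaction, the phenobarbital change in knockout minus that in wild type, was called for 2 of the 9 genes, both higher, against 0.242% of all genes called higher. Lgr5 gave 1.09 (SE 0.19, 95% interval 0.71 to 1.48, limma adjusted p = 0.00302), and 0.52 with the mean of its probe sets (limma adjusted p = 0.0338). Sp5 gave 0.64 (SE 0.14, limma adjusted p = 0.0262), and its call was lost under 5 of the alternatives. Among these were leaving out untreated wild-type array 1 (adjusted p = 0.0599), treated wild-type array 1 (0.0546) or 2 (0.0807), and untreated knockout arrays 2, 6 and 7 (0.0602). Both genes lay at or near background in the knockout. A smaller response there cannot be told apart from a limit of measurement, which was not tested. Tbx3 gave 0.51 (limma adjusted p = 0.344) by its leading probe set, which lay below background in the knockout. Probe set 1448029_at of Tbx3 gave 0.76 (limma adjusted p = 0.0654), and was called without untreated wild-type array 5 (adjusted p = 0.0027). For Axin2 the value was 0.069 with a 95% interval from -0.25 to 0.39.

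For each gene above background in at least 4 arrays, the most similar genes over the 23 arrays were found by Pearson correlation of the leading probe sets, among 13023 candidates. The arrays fall into genotype groups, so these correlations follow the genotype difference and are given as a description. Avpr1a, which encodes the vasopressin receptor of hepatocytes, was the most similar gene for 5 members: Tbx3 (r = 0.988), Rnf43 (0.979), Notum (0.974), Lgr5 (0.940) and Axin2 (0.918). It averaged 4.79 in treated knockouts, 4.90 in untreated knockouts, 8.27 in treated wild type and 9.04 in untreated wild type. Rmdn2 was among the 3 most similar genes of Tbx3 (0.987), Rnf43 (0.967), Notum (0.951) and Axin2 (0.914). Slc1a2 (0.933) and Lhpp (0.933) followed Avpr1a for Lgr5. Znrf3 was most similar to Nfix (0.953), Dna2 (0.946) and Aqp9 (0.943). Nkd1 and Lef1 had weaker nearest genes, Thap7 at 0.815 and Rps18 at 0.643.

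Other Wnt genes, listed by role and by leading probe set, moved in both directions. Of 31 core components without phenobarbital, 4 were higher and 2 lower in the knockout, beside 18.2% of all genes called in either direction. The corepressor Tle1 changed by -0.77 (adjusted p = 0.00257 in limma) and Ctnnbip1, an inhibitor of beta-catenin binding to TCF, by 0.64 (adjusted p = 8.56e-05 in limma). Tle4, another corepressor, rose by 0.53. With phenobarbital 5 core components were higher and 2 lower in the knockout, beside 7.88% and 5.79% of all genes. In wild type 2 of 31 were lower with phenobarbital, beside 1.2% of all genes, the kinase gene Csnk1a1 at -0.27 and Chd8, a chromatin remodeller that binds beta-catenin, at -0.26. Of 39 ligands and receptors, 5 were higher and 4 lower in the untreated knockout, beside 10.6% and 7.64% of all genes. Rspo3, a ligand of Lgr5, rose by 0.94 (7.09 ± 0.21 in untreated knockouts and 6.15 ± 0.061 in untreated wild type, SD, n = 7 and 5). Wls, needed for Wnt secretion, rose by 1.32, and the receptor gene Fzd7 changed by -0.53. Rspo3 and Wls are expressed mainly by non-hepatocytes in liver, whose markers were also higher, and the part of those cells was not tested.

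Of 26 other feedback regulators and inhibitors measured, 4 were higher and 5 lower in the untreated knockout, beside 10.6% and 7.64% of all genes. Tnfrsf19, a membrane receptor induced by Wnt in other tissues, changed by -1.61, to 3.66 ± 0.16 in untreated knockouts. That mean is below the background level, so the size of the Tnfrsf19 fall is uncertain. It rose with phenobarbital in wild type (6.89 ± 0.12 in treated and 5.27 ± 0.50 in untreated wild type, a change of 1.62). Its interaction was -1.58 (adjusted p = 0.000303 in limma), with a mean below background in both knockout groups. Frzb, a secreted Wnt antagonist, rose by 1.38 in the untreated knockout with a wide spread (5.13 ± 1.21 in untreated knockouts and 3.75 ± 0.14 in untreated wild type, which is below background, SD, n = 7 and 5). Bambi, a decoy receptor of TGF-beta signalling, rose by 0.91. Dact2 changed by -0.37 in the knockout and by -0.50 with phenobarbital in wild type. Of 26 other general Wnt targets measured, 2 were higher and 2 lower in the untreated knockout, where 18.2% of all genes were called in either direction. The tight-junction gene Cldn2 changed by -1.26, and Sox4, a transcription factor gene, and Bmp4, a growth factor gene, rose by 1.26 and 0.995. With phenobarbital in wild type, 1 of these was called, Prox1 at -0.78, beside 2.59% of all genes called in either direction.

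Hepatocyte genes of the perivenous zone that need beta-catenin were listed with their dependence already known, so their direction is no independent evidence. Of 21 measured, 19 were lower and 1 higher in the untreated knockout, with a median of -2.45, beside 7.64% of all genes called lower and 10.6% higher. Cyp2e1, a cytochrome P450 gene, changed by -5.05, Lect2, a secreted protein gene, by -4.998 and Oat, the ornithine aminotransferase gene, by -4.22. With phenobarbital in wild type 3 were lower and 3 higher, beside 2.59% of all genes called in either direction. Slc1a2, a glutamate transporter gene, changed by -1.15, Ang, a ribonuclease gene, by -1.08 and Avpr1a by -0.77, while Cyp2c37, a cytochrome P450 gene, rose by 2.30. In the knockout 3 were higher and 5 lower with phenobarbital, beside 1.46% of all genes called in either direction. The interaction was called for Cyp2c37 (2.34) and Slc1a2 (1.16), both higher, beside 0.242% of all genes. Slc1a2 averaged 4.78 in treated knockouts, 4.76 in untreated knockouts, 6.06 in treated wild type and 7.21 in untreated wild type.

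**Figure D4:**
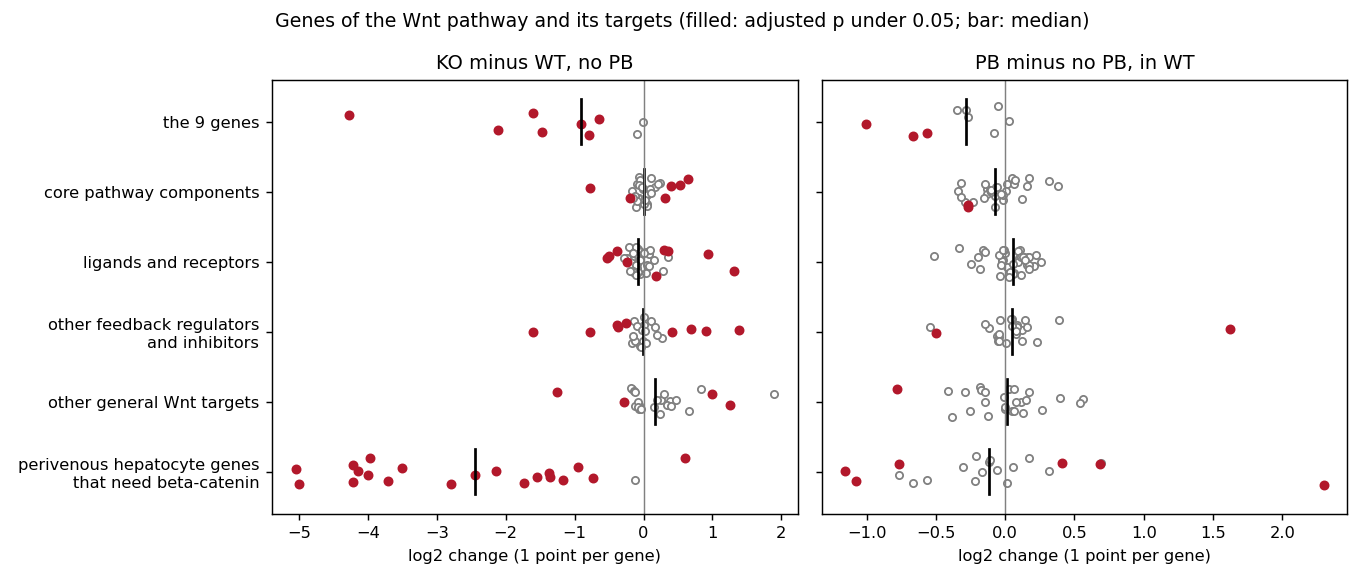
Log2 change of each gene (points) and the median (bars) of the 9 genes and of 5 Wnt lists, for knockout against wild type without PB and for the PB effect in wild type. The 9 genes have medians of -0.91 and -0.28, and the perivenous list has -2.45 and -0.12.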

How the data were processed

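The 4 groups of livers were hybridised to Affymetrix 3' arrays. The authors deposited 1 table of log2 signals, made with RMA (robust multi-array averaging) by the package affy, per the submitters' processing notes. Software versions and the set of arrays normalized as 1 batch are not given in the sources used here. Nothing was rescaled. Of 45037 probe sets, 34945 were assigned to 1 gene, 932 to several and 9160 to none by the platform annotation. Entrez identifiers gave the symbols of 34741 in the GRCm38.p6 gene table; the platform's own symbol stands for 204. All single-gene probe sets were tested without a filter. limma 3.58.1 (R 4.3.3) fitted 4 group means over the 23 arrays. Tests were moderated and two-sided, and p-values were adjusted over all 34945 probe sets by Benjamini-Hochberg. The fit was tested on simulated data. The number of arrays limits the precision.

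The members and lists were chosen with earlier results of these data known. Named genes were every member, and up to 3 called genes with the largest changes in each list and comparison, and the 3 genes most similar to a member. Alternatives were 2 filters on low values, 1 probe set or the mean per gene, quantile and median scaling, a trended prior, array weights, a replicate block, the groups compared only, each array left out, and 3 untreated knockout arrays left out together. Replicate numbers were not used to pair the samples in the main fit. Same-numbered arrays deviated together in some pairs and oppositely in others, which does not settle whether they shared an origin.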

Additional observations from a re-analysis of the deposited data

Results flagged for a closer look

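Of 80 groups of values tested, 3 had 1 array far from the others, where chance gives about 1 in 20. Nkd1 probe set 1429506_at was highest in untreated knockout array 5 at 4.828 (others 4.192 to 4.464) and lowest in treated knockout array 7 at 4.057 (others 4.264 to 4.415), both close to background. Lef1 probe set 1454734_at was lowest in untreated wild-type array 1 at 4.828 (others 4.981 to 5.043).

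The phenobarbital change differed between genotypes by the interaction test for 2 genes, Lgr5 with 1.093 and Sp5 with 0.6446 (knockout minus wild type, log2). Both signals were at or near background in the knockout arrays. Whether a fall could be measured there was not tested.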

How the results depend on the processing

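Of 3170 values of single member probe sets over the alternatives, 3143 kept their side of the threshold, 15 lost a call, 12 gained one and none reversed a called value. Values that were not called could change sign and still count among the 3143, such as Axin2 with phenobarbital in wild type (-0.18 to 0.017). Member genes tested were 9, or 8 after the 40th percentile filter and 6 after the 60th, and Sp5 was not tested after these filters. The number of member genes called was 6 to 7 for the knockout without phenobarbital and 6 to 7 with it, and 2 to 3 for phenobarbital in wild type. For phenobarbital in knockout it was 0, and 1 (Rnf43) under the stricter filter, array weights and without untreated knockout arrays 2, 6 and 7 (the 3 arrays), and 0 to 1 with an array left out. For the interaction it was 2, and 1 under both filters, 1 probe set per gene after the 40th percentile filter, the replicate block and without the 3 arrays, and 1 to 2 with an array left out; Sp5 was then lost or untested.

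The number of probe sets called moved more. For phenobarbital in wild type it was 852, against 532 with 1 probe set per gene after the 40th percentile filter, 452 with the mean per gene, 1895 with array weights, 1396 with the groups compared only, and 471 to 1064 with an array left out. For phenobarbital in knockout it was 601, against 284, 252, 297 with the groups compared only, 1266 without the 3 arrays, and 424 to 743. For the knockout without phenobarbital it was 5706, against 3453, 3311, 3039 with the replicate block, 3168 with the groups compared only, 2265 without the 3 arrays, and 4217 to 6659. With phenobarbital it was 4234, against 2772, 2296, 6875 with array weights, 2383 with the replicate block, 6364 without the 3 arrays, and 2666 to 5102. For the interaction it was 226, against 121, 109, 423 with array weights, 438 without the 3 arrays, and 146 to 276. Leaving out treated wild-type array 3 gave the 471, 2666 and 146, and leaving out treated wild-type array 4 gave 2724 for the knockout with phenobarbital. The first 2 counts of each comparison come from fewer features, 13826 and 18193 in place of 34945 probe sets, and also from a filter or from averaged values; the cause of these and the other differences was not tested. Signals near background may limit what Sp5, Lgr5 and Tbx3 can show in the knockout, and Rnf43 in the treated knockout.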
